A study of Mus musculus with 12 samples.

Results

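The expression of 10 genes for RNA-binding proteins that control alternative splicing in the nervous system was followed in mouse neural stem cells from proliferation to overt differentiation. The genes were Rbfox1, Rbfox2 and Rbfox3, Nova1 and Nova2, Ptbp1 and Ptbp2, Celf1 and Celf2, and Srrm4, chosen by their symbols. All 10 were found among the 22609 genes of the count tables, and all 10 were listed in the FPKM table.

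Alternative splicing joins the exons of a pre-mRNA in more than 1 way, and these proteins decide which exons are kept by binding short motifs in or near them. RBFOX proteins bind GCATG, NOVA proteins bind clusters of YCAY, PTBP proteins bind pyrimidine-rich stretches, CELF proteins bind GU-rich stretches, and SRRM4 promotes the inclusion of neuronal microexons. In neural development PTBP1, a repressor of neuronal exons, is known to give way to its paralog PTBP2, and RBFOX3 is the antigen known as NeuN, a marker of postmitotic neurons.

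The cells were adherent neural stem (ANS) cells from mouse embryos at embryonic day 14.5, cultures that can be driven to GABAergic neurons, and the labels state no genetic change in any group. T0 (3 libraries) was proliferating cells in growth medium with FGF2 and EGF. T1 (3 libraries) was sampled 2 days after the change to medium D1, with less of both factors, when proliferation was much reduced. T2 (4 libraries) was sampled 2 days after the change to medium B, which holds FGF2 and BDNF, at the onset of differentiation, and T3 (2 libraries, replicates 1 and 4) 10 days after that change. RNA with poly(A) tails was sequenced from whole cultures, so a lower value can reflect fewer cells of a type or less RNA per cell, which cannot be told apart here. The libraries are called biological replicates, and where they share a culture the p-values measure only the spread between libraries.

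Between 8910724 and 16631614 reads per library fell on genes. Values over time are given as CPM, a gene's count relative to the library's total, scaled with TMM factors, which correct for RNA composition, and a gene was called higher or lower where the p-value of edgeR's quasi-likelihood test, adjusted over all genes tested, was under 0.05. T0 replicate 3 stood apart from the other T0 libraries, with a chi-square statistic per gene of 101 and 105 against them, where those 2 libraries differed by 3.28. Results of the members against T0 are therefore also given without it. Progenitor genes such as Nes and Sox2 were present in every group, and the microglia markers (6 of 6) were at 3 counts or fewer in every library. Of the neuron markers Dcx and Gad1 rose at T1, T2 and T3, while Stmn2 stayed at 0 or 1 count throughout. Snap25 rose at T1 and T2 but did not pass 3.09 CPM in any library, and Syt1 stayed under that level.

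Of the 10 genes, 8 reached 10 counts in some library, and Rbfox1 and Srrm4 did not. At T1 against T0, 7 were tested, of which 3 were called higher (Nova1, Rbfox2 and Ptbp2, against 15.1% of all genes tested) and 1 lower (Ptbp1, against 16.8%). At T2 against T0, 8 were tested, with 4 called higher (the same 3 and Rbfox3, background 21.4%) and 1 lower (Ptbp1, background 21.8%). At T3 against T0, 1 of 8 was called higher (Rbfox3, background 3.31%) and 0 lower (background 1.41%) by edgeR. There 4 of 8 had an unadjusted p under 0.05, all higher, against 3350 of 12721 over all genes in both directions together. DESeq2 called 1 member higher and 0 lower there. Between T2 and T1, edgeR called 0 of 8 higher (background 0.573%) and 0 lower (background 0.0565%), with 1 at an unadjusted p under 0.05 and 1 called higher by DESeq2, Rbfox3 in both cases. Between T3 and T2 the counts were again 0 higher (background 0.5%) and 0 lower (background 0.691%), with 0 at an unadjusted p under 0.05 and 0 called by DESeq2. Over all genes, 1444 of 12382 had an unadjusted p under 0.05 between T2 and T1, and 2144 of 12599 between T3 and T2. Without T0 replicate 3 the counts of members called were again 3 and 1 at T1, 4 and 1 at T2, and 1 and 0 at T3. In that refit more of all genes were called in both directions at T1 and T3, so these backgrounds do not apply to it. Its calls over all genes at T1 and T3 are given in the last section, and those at T2 are not given.

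**Figure D1:**
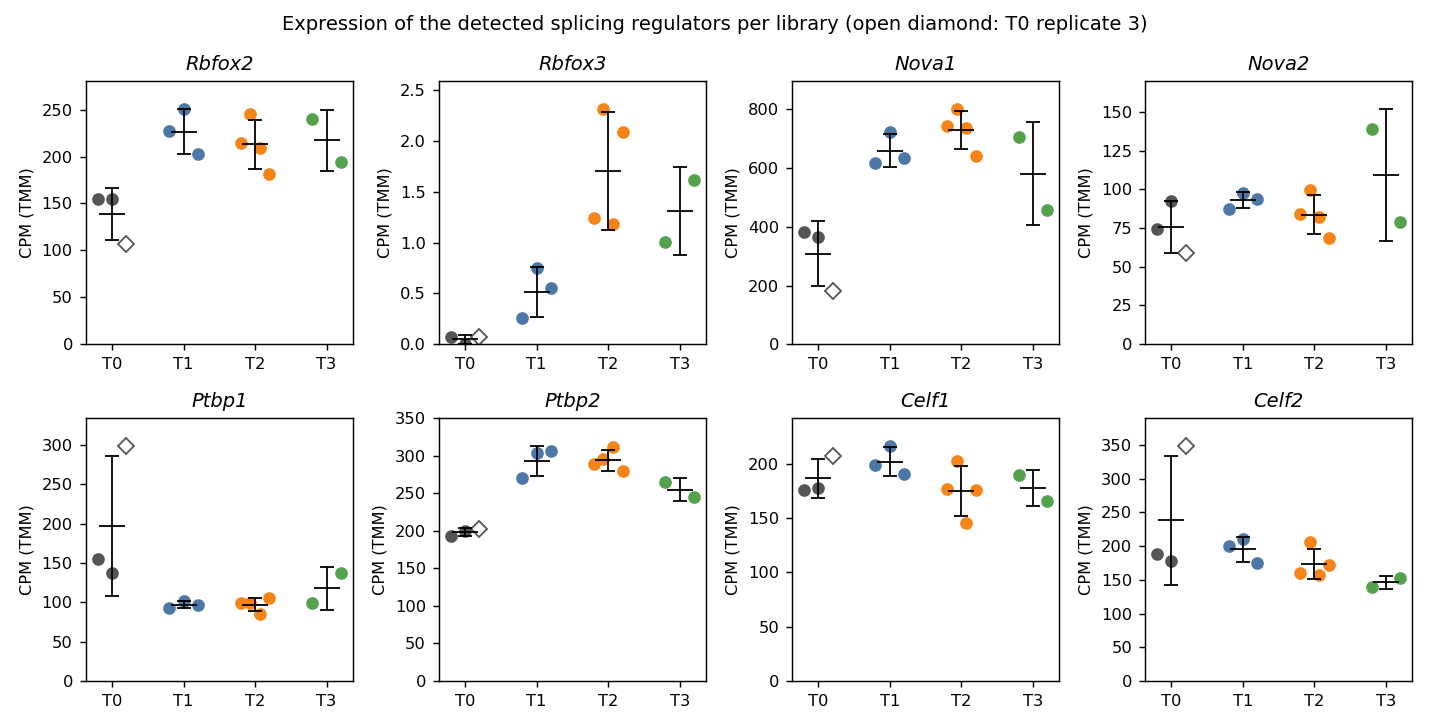
CPM of the 8 detected genes (y axes, linear from 0) in every library at the 4 time points (x axes). Points are libraries, horizontal bars with whiskers are the mean ± SD, and the open diamond is T0 replicate 3. Ptbp2 at T0 lies between 193 and 202 CPM, below every later library, and Ptbp1 at T1 and T2 lies between 84.9 and 106 CPM, below every T0 library.

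The PTBP pair moved in opposite directions after the cells left growth medium. Ptbp1 (chr10:79314125-79345919, mm9) encodes the polypyrimidine tract-binding protein of most non-neuronal cells and of progenitors. Its level was 155, 137 and 299 CPM at T0, 92.6, 101 and 97.1 CPM at T1, 99.1, 98.8, 84.9 and 106 CPM at T2, and 98.5 and 137 CPM at T3. The T1 and T2 libraries all lay below the T0 libraries, while T3 replicate 4 (137.2 CPM) and T0 replicate 2 (137 CPM) met. Ptbp1 fell by 1.03 on the log2 scale at T1 (SE 0.29, adjusted p = 0.0354) and by 1.01 at T2 (SE 0.25, adjusted p = 0.0131). At T3 the log2 fold change was -0.72 (SE 0.38, adjusted p = 0.288).

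The size of the Ptbp1 change rested in part on T0 replicate 3, which held the highest Ptbp1 level of all libraries. Without it the log2 fold change was -0.59 at T1 (adjusted p = 0.000563), -0.57 at T2 (adjusted p = 0.00105) and -0.29 at T3 (adjusted p = 0.315). The call at T1 was lost without T1 replicate 1 (-0.99, adjusted p = 0.119), without T1 replicate 2 (-1.06, adjusted p = 0.111) and without T1 replicate 3 (-1.03, adjusted p = 0.111). Over 15 alternative settings at T1 the adjusted p of Ptbp1 ran from 1.71e-05 to 0.119, and 8 kept the call. At T2, 15 of 16 settings kept it, with adjusted p from 0.000425 to 0.0756.

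Ptbp2 (chr3:119421659-119486306, mm9), the paralog enriched in neural cells, varied little among the T0 libraries. It was at 193, 200 and 202 CPM at T0, at 270, 304 and 306 CPM at T1, at 289, 295, 312 and 280 CPM at T2, and at 265 and 245 CPM at T3. Every library after T0 lay above every T0 library, and both T3 libraries lay below all T2 libraries. Ptbp2 rose 1.47-fold at T1 (log2 fold change 0.56, SE 0.11, adjusted p = 0.00955) and 1.50-fold at T2 (0.58, SE 0.09, adjusted p = 0.00173). At T3 the log2 fold change was 0.38 (SE 0.14, adjusted p = 0.161). The calls at T1 and T2 held in all 15 and 16 alternative settings, with adjusted p up to 0.0495 and 0.0264. When T0 replicate 3 was left out, Ptbp2 gave log2 fold changes of 0.57, 0.60 and 0.39 at the 3 later time points, the last with an adjusted p of 0.0648.

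Proliferation markers (Mki67, Top2a, Ccnb1, Cdk1, Mcm2 and Pcna) moved in the direction of Ptbp1. Their summed level was 1471, 1566 and 2349 CPM at T0, with the highest value in replicate 3, between 132 and 248 CPM at T1, between 162 and 307 CPM at T2, and 474 and 826 CPM at T3, with the higher value in replicate 4. The part of dividing cells in the Ptbp1 values was not tested.

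The paralogs are tied by splicing. PTBP1 is known to bind upstream of a short coding exon of the Ptbp2 pre-mRNA and cause its skipping, which shifts the reading frame and marks the mRNA for decay, and Ptbp1 has a homologous exon. Both exons are 34 bases long in the annotation of NCBIM37 (the same assembly as mm9), and 34 is not a multiple of 3. The sequences of both exons and of the introns before them are shown because this known regulation acts on them. The Ptbp2 exon lies at chr3:119427530-119427563 on the minus strand, in the 1 protein-coding transcript of the gene, and the Ptbp1 exon at chr10:79324759-79324792 on the plus strand, in 4 of its 8 protein-coding transcripts. They are identical at 26 of 34 positions, and capitals mark the 8 positions that differ.
Ptbp2 exon: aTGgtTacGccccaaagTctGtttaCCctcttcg
Ptbp1 exon: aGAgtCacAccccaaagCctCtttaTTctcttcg

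The 100 bases of intron just before each exon were searched on the transcript's strand for TCTT and CTCTCT, motifs that PTBP proteins bind, with overlapping matches counted separately. Capitals mark the bases of these matches. The Ptbp2 window is chr3:119427564-119427663 (minus strand), and the Ptbp1 window is chr10:79324659-79324758 (plus strand).
Ptbp2 intron: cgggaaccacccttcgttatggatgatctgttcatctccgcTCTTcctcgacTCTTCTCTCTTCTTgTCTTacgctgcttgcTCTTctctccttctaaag
Ptbp1 intron: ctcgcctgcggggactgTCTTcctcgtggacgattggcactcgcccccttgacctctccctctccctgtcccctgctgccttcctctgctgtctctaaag

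The Ptbp2 window held 6 matches of TCTT and 1 of CTCTCT, which overlaps TCTT, and the Ptbp1 window held 1 and 0. Both windows were rich in pyrimidines, at 73% and 71% of their bases. Of the 177716 windows of the same length before internal exons of protein-coding transcripts, 63.42% held TCTT at least once, 0.2195% held it 6 times or more, and 10.42% held CTCTCT. These are matches of letters and not measured binding. The deposited values are sums over whole genes, so inclusion of either exon was not measured, and reads of a transcript that skips it count the same as those of one that keeps it.

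Levels of different genes were compared per length, in FPKM within a library. The ratio of Ptbp2 to Ptbp1 FPKM was 0.418, 0.558 and 0.269 at T0, 1.06, 1.21 and 1.25 at T1, 1.09, 1.15, 1.56 and 0.928 at T2, and 0.976 and 0.701 at T3. All T0 libraries held more Ptbp1 than Ptbp2 per length, all T1 libraries the reverse, 3 of 4 T2 libraries the reverse, and both T3 libraries more Ptbp1. The mean ± SD was 0.415 ± 0.144 (n = 3), 1.18 ± 0.103 (n = 3), 1.18 ± 0.267 (n = 4) and 0.839 ± 0.194 (n = 2), and the T3 values lay above all T0 values. No test was made of this ratio. The Ptbp1 locus overlaps 4 other genes of the FPKM table. Of these, BC005764 (154 to 969 counts), E130317F20Rik (68 to 164) and Prtn3 (0 to 13) were also counted, and since the library kit does not mark strand, reads where they overlap Ptbp1 cannot be told apart.

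**Figure D2:**
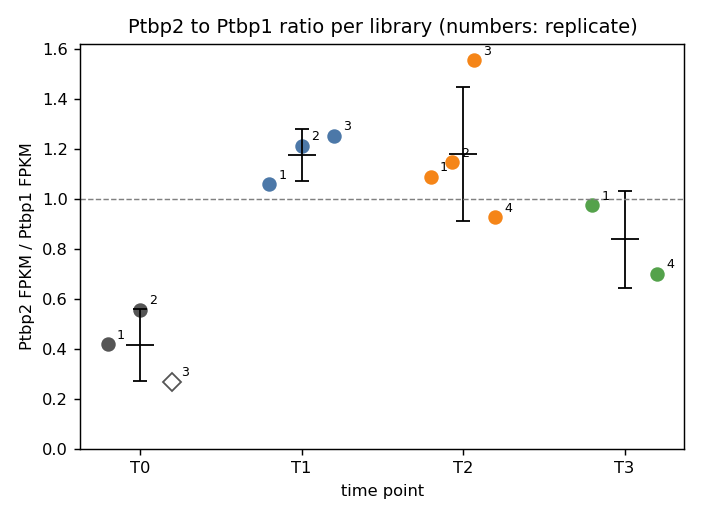
Ratio of Ptbp2 FPKM to Ptbp1 FPKM (y axis, linear from 0) in each library by time point (x axis). Points are libraries with their replicate number, bars are the mean ± SD, the dashed line is equality, and the open diamond is T0 replicate 3. The T0 ratios lie between 0.269 and 0.558 and the T1 ratios between 1.06 and 1.25.

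Nova1 rose more than the other abundant members at T1 and T2, and Nova2 was not called in any comparison. NOVA1 (chr12:47795503-47919762, mm9) and NOVA2 (chr7:19510697-19551031, mm9) are neuronal splicing factors first known as autoimmune antigens in paraneoplastic disease. Nova1 was at 382, 364 and 181 CPM at T0, at 618, 723 and 636 CPM at T1, at 743, 801, 735 and 641 CPM at T2, and at 705 and 456 CPM at T3. All libraries after T0 lay above all T0 libraries, and the lowest T0 value was again in replicate 3.

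Nova1 rose 2.13-fold at T1 (log2 fold change 1.09, SE 0.28, adjusted p = 0.025) and 2.39-fold at T2 (1.26, SE 0.25, adjusted p = 0.0044). At T3 its log2 fold change was 0.92 (SE 0.37, adjusted p = 0.185). Without T0 replicate 3 the values were 0.82 at T1 (adjusted p = 0.000192), 0.99 at T2 (adjusted p = 5.55e-05) and 0.66 at T3 (adjusted p = 0.0992). The T1 call was lost without T1 replicate 1, 2 or 3 (adjusted p = 0.0744, 0.0933 and 0.0722), and over all 15 settings the adjusted p ran from 4.13e-07 to 0.0933. The T2 call held in all 16.

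Nova2 was at 74.5, 92.5 and 59.1 CPM at T0, at 87.6, 97.4 and 93.8 CPM at T1, at 83.7, 99.5, 82.2 and 68.6 CPM at T2, and at 139 and 79.1 CPM at T3. The groups overlapped at every time point, and T3 replicate 1 held the highest level. Its log2 fold changes against T0 were 0.30 (SE 0.17, adjusted p = 0.218), 0.16 (SE 0.18, adjusted p = 0.478) and 0.55 (SE 0.30, adjusted p = 0.302). With T0 replicate 3 left out, those of Nova2 were 0.15, 0.014 and 0.41 (adjusted p = 0.265, 0.943 and 0.363). Per length Nova2 stood below Nova1 in every library, and the ratio of Nova2 to Nova1 FPKM was 0.230 ± 0.0509 (SD, n = 3) at T0, 0.127 ± 0.00465 (n = 3) at T1, 0.0997 ± 0.0111 (n = 4) at T2 and 0.162 ± 0.0286 (n = 2) at T3. This ratio was chosen after its values were seen.

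The RBFOX family showed 3 separate patterns. Rbfox2 (chr15:76909419-77137483, mm9), the broadly expressed member, was at 155, 155 and 106 CPM at T0, at 227, 250 and 203 CPM at T1, at 215, 246, 209 and 182 CPM at T2, and at 240 and 194 CPM at T3. All later libraries lay above the T0 libraries. Rbfox2 rose 1.63-fold at T1 (log2 fold change 0.71, SE 0.17, adjusted p = 0.0231) and 1.55-fold at T2 (0.64, SE 0.16, adjusted p = 0.0149). At T3 the log2 fold change was 0.66 (SE 0.22, adjusted p = 0.132).

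Leaving out T0 replicate 3, the log2 fold change of Rbfox2 was 0.55 at T1 (adjusted p = 0.00195), 0.48 at T2 (adjusted p = 0.00661) and 0.51 at T3 (adjusted p = 0.0625). The T1 call was lost without T1 replicate 1 (adjusted p = 0.0833) and without T1 replicate 2 (adjusted p = 0.092), and over 15 settings the adjusted p ran from 2.67e-06 to 0.092. At T2 it ran from 0.000258 to 0.0563 over 16 settings, 15 of which kept the call.

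Rbfox3 (chr11:118351073-118772911, mm9), the gene of the NeuN antigen, went from near absence to a low level. Its reads were 1, 0 and 1 at T0, 3, 10 and 9 at T1, 13, 25, 13 and 34 at T2, and 12 and 15 at T3. Scaled, the T1 libraries were at 0.259, 0.747 and 0.549 CPM, the T2 libraries at 1.24, 2.31, 1.18 and 2.09 CPM, and the T3 libraries at 1.00 and 1.61 CPM. Each later group lay above T0, and T2 also lay above T1. Since T0 held at most 1 read, folds are bounds against 3 counts in each T0 library. On that basis Rbfox3 was, as a mean, at least 2.41-fold higher at T1, at least 7.93-fold higher at T2 (adjusted p = 0.000569) and at least 6.08-fold higher at T3 (adjusted p = 0.0404). These bounds leave out the error of the later libraries, and T1 replicate 1 itself held 3 reads. At T1 Rbfox3 did not pass the filter on low counts. Of 4 settings that tested it there, DESeq2 (adjusted p = 0.0388), edgeR with no filter (0.0272) and edgeR with one fit of all 12 libraries (0.00602) called it higher, and limma with no filter did not (0.0659).

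At T2 the Rbfox3 call held in all 14 settings in which it was tested. The adjusted p without T0 replicate 3 was 0.000394 at T2 and 0.0266 at T3. At T3 it was lost without T0 replicate 1 (adjusted p = 0.122), without T0 replicate 2 (adjusted p = 0.126) and without T3 replicate 1 (adjusted p = 0.228), and over 9 settings the adjusted p ran from 0.00127 to 0.228. Between T1 and T2 the log2 fold change was 1.70 (SE 0.41, adjusted p = 0.114 by edgeR and 0.0469 by DESeq2, with 0.0469 to 0.383 over 14 settings). Rbfox3 could not be tested at T3 without T3 replicate 4. Even at T2 its mean was 0.586 FPKM, 0.0268 ± 0.0124 (SD, n = 4) of the Rbfox2 level in the same libraries, a ratio also chosen after its values were seen. The FPKM of Rbfox3 did not follow its reads, since T2 replicates 1 and 3, with 13 reads each, had 0.910 and 0.254 FPKM. As counts, which are not per length, the T2 ratio ran from 0.00565 to 0.0115.

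Rbfox1 (chr16:6809314-7412572, mm9) and Srrm4 (chr5:116888728-117041826, mm9), both strongly expressed in mature neurons, were not detected beyond single reads. Rbfox1 had 1 read in T2 replicate 4 and 0 in the other 11 libraries. Srrm4, the gene of the microexon regulator also known as nSR100, had 1 read in T2 replicate 4, 1 in T3 replicate 4 and 0 elsewhere. A level of 3 counts, the limit that a count of 0 allows, corresponds to 0.183 to 0.323 CPM over the libraries. A count of 0 thus leaves expression up to that level possible, and the single reads lay below it. The limit covers counting error only.

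The CELF members were expressed throughout and were not called in any comparison. Celf1 (chr2:90780538-90859654, mm9), a broadly expressed regulator of splicing and mRNA decay, was at 175, 177 and 207 CPM at T0, at 199, 216 and 190 CPM at T1, at 176, 202, 145 and 176 CPM at T2, and at 190 and 166 CPM at T3. All groups overlapped. Its log2 fold changes against T0 were 0.11 (SE 0.12, adjusted p = 0.505), -0.077 (SE 0.13, adjusted p = 0.659) and -0.055 (SE 0.16, adjusted p = 0.854). With T0 replicate 3 left out, those of Celf1 were 0.19, 0.0054 and 0.027 (adjusted p = 0.0832, 0.974 and 0.89).

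Celf2 (chr2:6460750-7002359, mm9), which is enriched in brain, muscle and lymphoid cells, was at 188, 178 and 349 CPM at T0, at 200, 211 and 175 CPM at T1, at 161, 206, 157 and 172 CPM at T2, and at 140 and 153 CPM at T3. The T3 libraries lay below every other library, while T1 and T2 overlapped T0. The log2 fold change against T0 was -0.29 (SE 0.27, adjusted p = 0.423) at T1, -0.44 (SE 0.24, adjusted p = 0.163) at T2 and -0.69 (SE 0.33, adjusted p = 0.249) at T3. T0 replicate 3 set much of these values. Without it they were 0.09, -0.057 and -0.31 (adjusted p = 0.463, 0.691 and 0.11). The ratio of Celf2 to Celf1 FPKM, chosen after its values were seen, was 0.513 ± 0.157 (SD, n = 3) at T0, 0.346 ± 0.0136 (n = 3) at T1, 0.357 ± 0.041 (n = 4) at T2 and 0.318 ± 0.013 (n = 2) at T3.

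**Figure D3:**
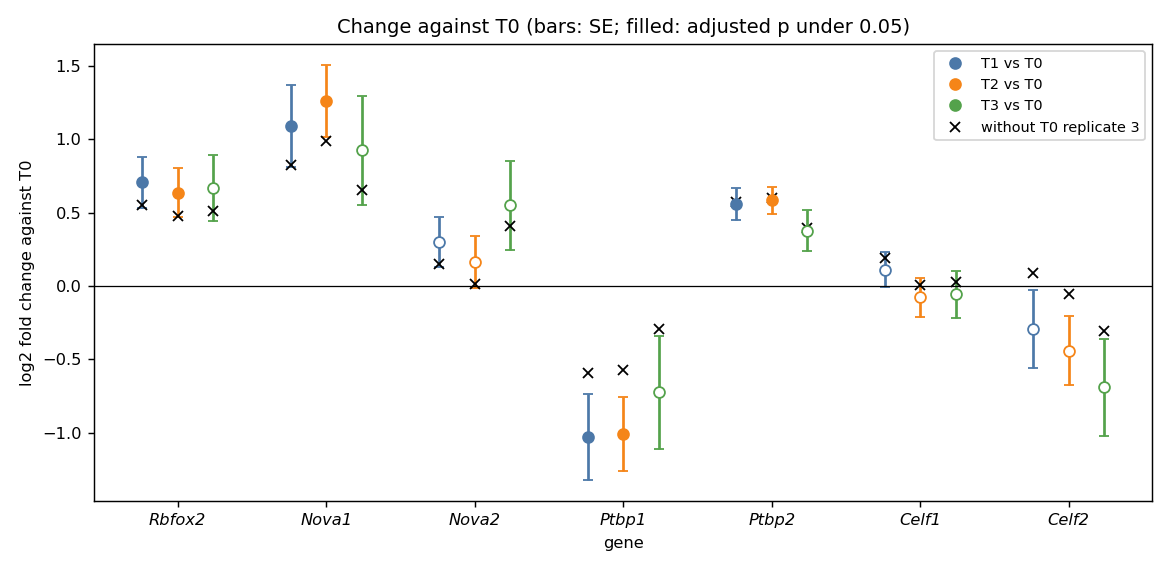
Log2 fold change against T0 (y axis) of 7 members (x axis) at T1, T2 and T3. Points are edgeR estimates with bars of 1 SE, filled where the adjusted p was under 0.05, and crosses are the estimates without T0 replicate 3. Ptbp1 moves from -1.03 to -0.59 at T1 without that library, while Ptbp2 stays at 0.56 and 0.57.

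With libraries numbered 1 and 2 alone, which leaves out T0 replicate 3, the members called at T1 and T2 were called again. At T1 the log2 fold change was 0.63 for Rbfox2, 0.85 for Nova1, -0.59 for Ptbp1 and 0.55 for Ptbp2. At T2 it was 0.59, 1.06, -0.55 and 0.58 for the same genes. In the T1 comparison of these libraries Celf1 (0.24, adjusted p = 0.00755) and Celf2 (0.17, adjusted p = 0.0429) were also called higher, with adjusted p up to 0.786 and 0.648 over the 15 settings.

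As a sum, neuron markers (Tubb3, Dcx, Mtap2, Gad1, Syt1, Snap25 and Stmn2) moved in the direction of Nova1, Rbfox2, Ptbp2 and Rbfox3. Their summed level was 893 to 965 CPM at T0, 2060 to 2609 at T1, 2030 to 2588 at T2 and 1696 to 2725 at T3. Mtap2 weighs most in this sum, with up to 29022 counts in a library, against 6570 for Dcx, 775 for Gad1 and 1 for Stmn2. At T1 Mtap2 rose 2.11-fold and Dcx 39.2-fold, so the sum does not give the change of each marker. The 6 oligodendrocyte lineage markers summed to 3181 to 3620 CPM at T0, 3972 to 4241 at T1, 3963 to 4536 at T2 and 5011 to 5961 at T3. Olig1 and Olig2 weigh most in this sum, with up to 43345 and 20143 counts in a library. Pdgfra was called higher at T1 (7.13-fold, adjusted p = 0.0226) and T2 (8.11-fold, adjusted p = 0.00392). Olig1 was also called higher at T2 (1.26-fold, adjusted p = 0.0426), and at T3 edgeR called 0 of these 6. Astrocyte markers summed to 767 to 2068 CPM at T0 and 1303 to 1872 CPM over the later groups. Progenitor markers summed to 5358 to 7446 CPM at T0, 5734 to 7163 at T1, 4998 to 5862 at T2 and 5444 to 5640 at T3. Of the 6 vascular and mesenchymal markers, Cdh5 and Cldn5 were at 3 counts or fewer in every library, and the sum reached 2.26 CPM at most. The part of each cell type in the members' values was not tested.

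The order of the members per length also shifted. At T0 the mean FPKM ran from Ptbp1 (116) over Celf1 (75.0), Ptbp2 (43.1), Celf2 (39.8), Nova1 (30.9) and Rbfox2 (15.3) to Nova2 (6.82). Neighbours whose library values overlapped at T0 were Ptbp1 and Celf1, Ptbp2 and Celf2, and Celf2 and Nova1. At T1 the order was Celf1 (82.6), Nova1 (65.7), Ptbp2 (62.6), Ptbp1 (53.3), Celf2 (28.6), Rbfox2 (24.8) and Nova2 (8.33), with overlap between Nova1 and Ptbp2 and between Celf2 and Rbfox2.

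At T2 Nova1 (68.6), Celf1 (67.5), Ptbp2 (58.4) and Ptbp1 (50.8) each overlapped the next, followed by Celf2 (24.2), Rbfox2 (22.1) and Nova2 (6.88). At T3 Celf1 (63.6), Ptbp1 (57.8), Nova1 (51.8) and Ptbp2 (48.0) overlapped in the same way, above Rbfox2 (21.1), Celf2 (20.2) and Nova2 (8.66). Celf2 and Rbfox2 also overlapped each other at T2 and at T3. Rbfox3 stayed under 1 FPKM in every library, from a mean of 0.0134 at T0 to 0.554 at T3. At T0 the order of Nova1 and Celf2 turned on replicate 3. Nova1 was above Celf2 in replicate 1 (37.5 against 28.8 FPKM) and replicate 2 (34.9 against 28.2) and below it in replicate 3 (20.1 against 62.4).

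Other regulators of neural splicing, 28 genes of the same families and of the ELAVL, MBNL, KHDRBS, RBM, ESRP and RAVER families among others, were read from the same fits. At T1, 22 were tested, with 2 higher (15.1% of all genes) and 4 lower (16.8%). The median log2 fold change was -0.07 against -0.0082 for all genes. At T2, 24 were tested, with 6 higher (21.4% of all genes) and 4 lower (21.8%), and the median was 0.037 against 0.0023. At T3, 2 of 24 were higher (3.31% of all genes) and 0 lower (1.41%), and the median was 0.047 against -0.015. At T3 DESeq2 called 7 higher and 0 lower. At an unadjusted p under 0.05 edgeR gave 7 and 1 there, against 3350 of 12721 over all genes. When T0 replicate 3 was left out the counts were 7 and 6 at T1, 8 and 6 at T2, and 6 and 0 at T3. More of all genes were called at T1 and T3 in that refit too, which holds for the lists below as well. Without 1 of the T1 libraries, 0 or 1 were called higher and 0 lower at T1, and without T0 replicate 1, T0 replicate 2 or either T3 library, 0 were called at T3. Leaving out T0 replicate 1 gave 3 and 3 at T1, and T0 replicate 2 gave 1 and 5. Between T2 and T3 edgeR called 0 of 24 (of all genes, 0.5% were higher and 0.691% lower). There 3 were higher and 0 lower at an unadjusted p under 0.05 (2144 of 12599 over all genes), and DESeq2 called 2 higher and 0 lower.

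Celf4, Celf5, Celf6 and Elavl3 were among those that rose against T0. Celf3 and Elavl2 were not called against T0, and Elavl4 was called lower at T1. Celf4 was at 2.33 to 8.03 CPM at T0, 11.6 to 24.6 at T1, 25.8 to 45.7 at T2, and 19.2 and 43.7 in the T3 libraries, and it rose by a log2 fold change of 1.54 at T1 (SE 0.48, adjusted p = 0.0476, with 0.000734 to 0.159 over 15 settings, 6 of which kept the call) and 2.45 at T2 (SE 0.41, adjusted p = 0.00207). Celf5 was at 0.917 to 1.20 CPM at T0 and 3.00 to 5.18 at T2, and its T3 values of 8.04 and 9.36 CPM were above every other library. Celf5 rose by 2.01 at T2 (SE 0.29, adjusted p = 0.000969) and 3.05 at T3 (SE 0.33, adjusted p = 0.0177), and was called higher by edgeR between T1 and T2 (1.47, SE 0.25, adjusted p = 0.0405), where no other gene of this list was. The Celf5 call at T3 was kept in 5 of 10 settings, and that between T1 and T2 in 5 of 14. With the replicate number as a block, which treats same-numbered T1 and T2 libraries as pairs, Mbnl2 (0.37, adjusted p = 0.0367) joined Celf5 in that comparison. DESeq2 called Celf5, Celf4 (0.89, adjusted p = 0.0363) and Elavl3 (0.56, adjusted p = 0.0381) higher there, while one fit of all 12 libraries called 0 of 25.

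Celf6 rose by 2.65 at T2 (SE 0.49, adjusted p = 0.00341) from 7 reads or fewer at T0. Elavl3, the gene of the neuronal Hu protein HuC, was at 3.60, 3.63 and 0.212 CPM at T0 and at 14.9 to 18.2 CPM at T2, and rose by 2.80 (SE 0.60, adjusted p = 0.00671, and 2.25 without T0 replicate 3). Srrm3, the paralog of Srrm4 that also acts on microexons, had 2, 2 and 0 reads at T0 and 16, 18, 29 and 31 at T2, at least 8.99-fold higher as a mean (adjusted p = 0.000749). At T3 it had 117 reads in replicate 1 and 17 in replicate 4, at least 27-fold higher as a mean (adjusted p = 0.0417). The T3 call of Srrm3 was kept in 5 of 10 settings, and the 2 libraries lay at 9.80 and 1.83 CPM. Rbm4b rose by 0.76 at T1 (SE 0.17, adjusted p = 0.0156) and 0.71 at T2 (SE 0.15, adjusted p = 0.00624). With T0 replicate 3 left out, the rises at T2 were 2.07 for Celf4, 1.93 for Celf5, 2.20 for Celf6 and 0.55 for Rbm4b, and Celf5 and Srrm3 were again called at T3 (adjusted p = 0.00966 and 0.0364).

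The genes that fell included a further PTBP paralog. Rod1, the older symbol of the third PTBP paralog Ptbp3, was at 152, 160 and 189 CPM at T0, at 118 to 128 CPM at T1 and at 101 to 126 CPM at T2. It fell by 0.44 on the log2 scale at T1 (SE 0.12, adjusted p = 0.031) and by 0.58 at T2 (SE 0.12, adjusted p = 0.006), in the direction of Ptbp1 and against that of Ptbp2. Raver1, a gene for a co-repressor that binds PTBP1, fell by 0.75 at T1 (SE 0.20, adjusted p = 0.0318) and by 0.78 at T2 (SE 0.17, adjusted p = 0.00792). Mbnl1, which encodes a muscleblind regulator, fell by 1.03 at T1 (SE 0.26, adjusted p = 0.026) and by 0.89 at T2 (SE 0.22, adjusted p = 0.0135).

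Rbm38 fell by 1.20 at T2 (SE 0.36, adjusted p = 0.0267, kept in 8 of 16 settings), and Elavl4, the gene of HuD, fell by 1.40 at T1 (SE 0.42, adjusted p = 0.0429, kept in 8 of 15) from 43 to 114 reads at T0. T0 replicate 3 held the highest T0 value of Rod1, Raver1, Mbnl1, Rbm38 and Elavl4, and without it their falls were 0.34, 0.49, 0.65, 0.45 and 0.86 at T1, each called. At T2 the fall of Rbm38 was then 0.52, and those of Rod1, Raver1 and Mbnl1 were 0.48, 0.52 and 0.51, each called.

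**Figure D4:**
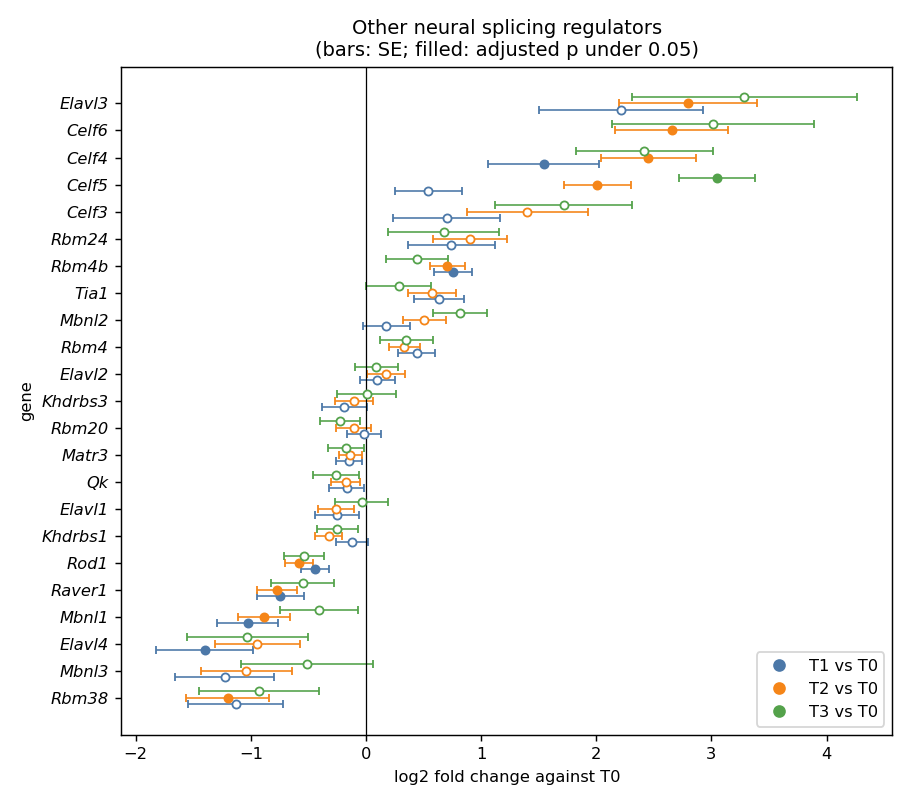
Log2 fold change against T0 (x axis) of the other neural splicing regulators (y axis, ordered by the change at T2) at T1, T2 and T3. Points are edgeR estimates with bars of 1 SE, filled where the adjusted p was under 0.05, and genes with 3 counts or fewer in every T0 library are not drawn. Elavl3 (2.80), Celf6 (2.65), Celf4 (2.45) and Celf5 (2.01) have the highest values at T2, and Rbm38 (-1.20) the lowest.

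REST is a repressor of neuronal genes in non-neuronal cells, Srrm4 among them, and acts with the corepressors RCOR1 and SIN3A and with histone deacetylases. Rest itself was at 39.8, 48.1 and 32.2 CPM at T0 and at 22.6 to 43.4 CPM later, with overlapping groups and log2 fold changes of -0.034, -0.33 and -0.33 (adjusted p = 0.893, 0.228 and 0.391). Of 12 genes of this complex, all tested, 2 were higher (Rcor3, Ctdsp2) and 3 lower (Rcor1, Sin3a, Hdac2) at T1, 1 higher (Ctdsp2) and 4 lower at T2, and 0 higher and 1 lower (Rcor2) at T3. The shares of all genes called higher and lower were 15.1% and 16.8% at T1, 21.4% and 21.8% at T2, and 3.31% and 1.41% at T3. The medians of the complex were -0.026, -0.21 and -0.24. Rcor2, a neural corepressor of the same family, was at 137 to 153 CPM at T0, at 103 to 136 CPM at T1, at 71.8 to 87.2 CPM at T2 and at 84.2 and 85.2 CPM at T3.

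Rcor2 fell by 0.91 on the log2 scale at T2 (SE 0.11, adjusted p = 0.00037), by 0.77 at T3 (SE 0.14, adjusted p = 0.0449) and, between T1 and T2, by 0.60 (SE 0.11, adjusted p = 0.0469). The T2 call held in all 16 settings, that at T3 in 5 of 12 and that between T1 and T2 in 5 of 16. With T0 replicate 3 left out, Rcor2 fell by 0.95 at T2 and by 0.82 at T3. At T2 Rcor1 fell by 0.78 (SE 0.20, adjusted p = 0.0147), Hdac2 by 0.69 (SE 0.15, adjusted p = 0.0062) and Sin3a by 0.55 (SE 0.11, adjusted p = 0.0042), and Ctdsp2 rose by 0.39 (SE 0.13, adjusted p = 0.0407, kept in 6 of 16 settings). At T1 the adjusted p of these calls lay between 0.033 (Hdac2) and just under 0.05 (Sin3a), and leaving out any 1 T1 library left 0 of 12 called, as did leaving out T0 replicate 2. DESeq2 called 0 higher and 2 lower at T3, where edgeR gave 0 and 4 at an unadjusted p under 0.05 (3350 of 12721 over all genes). Leaving out T0 replicate 3, the complex had 3 higher and 4 lower at T1, 1 and 4 at T2, and 0 and 2 at T3. Without any 1 other library of the T3 comparison it had 0.

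A list of 15 genes carries an exon that members are known to regulate, and only their whole-gene levels could be read. Rest is in this list as well as in that of the REST complex. At T1, 12 of the 15 were tested, with 2 higher and 2 lower (median -0.032), at T2, 13 were tested, with 4 higher and 4 lower (median -0.12), and at T3 edgeR called 0 of 13 higher and 0 lower (median -0.17), DESeq2 2 and 2, with 3 and 3 at an unadjusted p under 0.05. Of all genes, edgeR called 15.1% higher and 16.8% lower at T1, 21.4% and 21.8% at T2, and 3.31% and 1.41% at T3. An unadjusted p under 0.05 was found at T3 for 3350 of 12721 genes. With T0 replicate 3 left out the counts of the list were 3 and 4, 4 and 5, and 3 and 3. Kcnj6 had 3 reads or fewer in every library. Mapt, the gene of tau, was at 20.3, 19.0 and 2.12 CPM at T0, at 90.7 to 100 CPM at T1, at 146 to 174 CPM at T2 and at 119 and 307 CPM at T3. Mapt rose by 2.77 at T1 (SE 0.67, adjusted p = 0.0216, kept in 12 of 15 settings and lost without T1 replicate 1, 2 or 3), by 3.55 at T2 (SE 0.61, adjusted p = 0.00225) and between T1 and T2 by 0.77 (SE 0.08, adjusted p = 0.00653, kept in 11 of 16 settings). T0 replicate 3 held the low T0 value, and without it the rises over T0 were 2.26 and 3.04.

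Pkm2, the older symbol of the pyruvate kinase gene whose mutually exclusive exons PTBP1 is known to control, was at 989 to 1133 CPM at T0, at 430 to 556 CPM at T1, at 430 to 511 CPM at T2 and at 523 and 608 CPM at T3. It fell by 1.14 at T1 (SE 0.15, adjusted p = 0.00218) and by 1.16 at T2 (SE 0.11, adjusted p = 0.000151), in all 15 and 16 settings. Dlg4, the gene of PSD-95, with an exon that PTBP proteins are known to repress, was at 206, 212 and 179 CPM at T0 and at 89.1 to 122 CPM in all later libraries. Dlg4 fell by 0.82 at T1 (SE 0.13, adjusted p = 0.00471) and by 0.90 at T2 (SE 0.13, adjusted p = 0.000899), again in all settings.

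Src, with a neuronal exon repressed by PTBP1, rose by 0.59 at T1 (SE 0.11, adjusted p = 0.0083) and by 0.56 at T2 (SE 0.09, adjusted p = 0.0019), kept in 14 of 15 and 13 of 16 settings. With T0 replicate 3 left out, the T2 values were -1.10 for Pkm2, -0.98 for Dlg4 and 0.54 for Src, each called. At T2 Grin1 (1.74, SE 0.51, adjusted p = 0.0239, from 3 to 10 reads at T0, kept in 9 of 14 settings) and Unc13b (0.71, SE 0.19, adjusted p = 0.0162) also rose, and Dab1 (-0.66, SE 0.18, adjusted p = 0.0178, kept in 14 of 16) and Gphn (-0.33, SE 0.11, adjusted p = 0.032, kept in 10 of 16) fell. Agrn, with NOVA-regulated exons, fell by 0.49 between T1 and T2 (SE 0.08, adjusted p = 0.0299, kept in 5 of 16).

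The genes most like each member were named by the Pearson correlation of log2 CPM over the 12 libraries, among 11522 genes. These values describe the libraries, which share their time points and their T0 replicate 3. For Ptbp1 they were Nup93 (r = 0.992), Pigw (0.991) and Pak4 (0.991), and for Ptbp2 Dbn1 (0.980), Foxo6 (0.979) and 5430405G05Rik (0.979). Nova1 was closest to Mgat3 (0.992), 2810021J22Rik (0.991) and Ppm1e (0.988), and Rbfox2 to Igsf9b (0.986), Kif21b (0.983) and Myt1 (0.982). Lower values were found for Celf2 (Fndc3b 0.942, Ext1 0.937 and Cd276 0.929), Nova2 (Setd7 0.914, Zfp81 0.914 and Ick 0.895) and Celf1 (Maml1 0.909 and Nfrkb 0.899).

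The comparisons after T0 gave smaller differences between members. From T1 to T2 the log2 fold changes of the 7 abundant members ran from -0.20 (Celf1) to 0.16 (Nova1), with adjusted p of 0.531 or more. From T2 to T3 they ran from -0.34 (Nova1) to 0.39 (Nova2), with adjusted p of 0.363 or more. In the second interval the 2 T3 libraries went apart in several members. Without T3 replicate 1, Nova1 was called lower (-0.67, adjusted p = 0.0321) and Ptbp1 higher (0.50, adjusted p = 0.0497), while without T3 replicate 4 their values were -0.067 and 0.0047 (adjusted p = 0.886 and 0.995). Over 14 settings the adjusted p ran from 0.0321 to 0.886 for Nova1 and from 0.0497 to 0.995 for Ptbp1.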

How the data were processed

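The authors sequenced poly(A) RNA of ANS cells with the TruSeq RNA Sample Prep kit v2, which does not mark strand, on a HiScanSQ. Per the labels, basecalls were made with CASAVA 1.8 and reads were aligned with TopHat2 2.0.6 and Bowtie 0.12.7.0 to mm9, and HTSeq 0.6.0 and DESeq2 1.0.0 are listed among the tools. The strand setting of the counting is not given in the sources used here. The deposited count tables hold unnormalized counts per gene, and their 5 summary lines were dropped first. The no-feature line held 13.3% to 24.1% of the reads that were not multiply aligned, and multiply aligned reads were not counted, so levels of close paralogs are uncertain. The authors also deposited FPKM values per gene and library, by a tool not given in the sources used here. FPKM relative to CPM differed between libraries (median over 9815 genes 0.258 to 0.356), so FPKM was used within libraries and counts over time.

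Each pair of time points was fitted with the quasi-likelihood test of edgeR 4.0.16 (R 4.3.3, TMM, filterByExpr, Benjamini-Hochberg over all genes, threshold 0.05) on its own libraries, and the standard error is the size of the log2 fold change divided by the square root of F. The fits were tested on simulated data. The alternatives were DESeq2 1.42.0, DESeq2's size factors (RLE) in edgeR, no filter, one fit of all 12 libraries, leaving out each library, limma 3.58.1 on log2(FPKM + 1) or log2(FPKM + 0.1) or with no filter (else a mean of 1 FPKM), the replicate number as a block, and libraries numbered 1 and 2 alone. Fold changes of limma are on the log2(FPKM + pseudocount) scale. Same-numbered T1 and T2 libraries deviated together from their group means (r = 0.20, 0.34 and 0.17 over 12952 genes). Differently numbered T1 and T2 libraries correlated at -0.31 to 0.069. The numbers may thus pair T1 with T2, which the sample titles do not state. The reported fits use no pairing, and the block is among the alternatives. Same-numbered T0 libraries correlated with T1 or T2 at -0.15 to 0.12 and those of T2 and T3 at -0.015 and 0.26. Ratios of FPKM carry no test.

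The members and gene lists were chosen with earlier results of these data known. Named beside the members were list genes called against T0 (up to 8 per list and comparison) and the 3 genes most correlated with each member. Genes called only between T1 and T2, or only under 1 alternative, were added after their values were seen. Some items are not reported here. Exon and intron sequences come from NCBIM37 with GENCODE vM1.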

Additional observations from a re-analysis of the deposited data

How the results depend on the processing

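At T2 the counts of members called (4 higher, 1 lower) were the same in all refits that left out 1 library. At T1 they ran from 1 to 3 higher and from 0 to 1 lower without 1 library, and 5 were higher with libraries numbered 1 and 2 alone. Limma on log2(FPKM + 1), log2(FPKM + 0.1) and with no filter called 0 lower at T1 and 0 higher at T3. The replicate block could not be fitted for T3 against T0, which share 1 number. With the replicate block 0 members were lower at T1 and T2, where Ptbp1 was at -0.94 (adjusted p = 0.0553) and -0.95 (adjusted p = 0.0756). Whether the numbers pair T0 with later libraries was not settled, since T0 replicate 3 stood apart and weighs on every deviation from the T0 mean. The block changed no other member's call. At T3 the count higher ran from 0 to 1 without 1 library and was 4 in one fit of all 12. DESeq2 called 1 member higher between T1 and T2, and between T2 and T3 the counts ran from 0 to 1 in each direction without 1 library.

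The values that changed sign were not called in the reported test of the same comparison, and after the change Celf2 at T1 was called higher with libraries 1 and 2 alone (adjusted p = 0.0429). Celf2 at T1 ran from -0.47 to 0.090 without 1 library and was 0.17 with libraries 1 and 2 alone, and at T2 it was 0.013 with these. Celf1 ran from -0.15 to 0.0054 at T2 (0.12 with libraries 1 and 2 alone), from -0.15 to 0.027 at T3, and from -0.075 to 0.10 between T2 and T3, where it was -0.0051 with no filter and -0.10 in the 3 limma fits. Between T1 and T2 Ptbp1 ran from -0.029 to 0.069, with -0.031 under the replicate block and -0.083, -0.084 and -0.083 by limma, and Ptbp2 from -0.049 to 0.045, with -0.099, -0.10 and -0.099 by limma. Between T2 and T3 Rbfox2 ran from -0.13 to 0.16, with -0.074, -0.078 and -0.074 by limma, and Nova2 from -0.072 to 0.72. The causes were not tested.

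Counts are not per length, and as a ratio of counts Ptbp2 to Ptbp1 gave 1.13 (T0), 3.03 (T1), 3.06 (T2) and 2.24 (T3). Without 1 library the FPKM ratio ran from 0.343 to 0.488, 1.14 to 1.23, 1.05 to 1.26 and 0.701 to 0.976. Between T1 and T2 the block moved the calls over all genes from 71 to 187 higher and from 7 to 59 lower, and between T2 and T3 from 63 to 5 and from 87 to 9. Calls over all genes at T3 against T0 (421 higher, 179 lower) were 14 and 1 without T0 replicate 1, 13 and 2 without T0 replicate 2, 1250 and 1067 without T0 replicate 3, 0 and 0 without T3 replicate 1, 1 and 0 without T3 replicate 4, 1084 and 939 by DESeq2, and 2000 and 1865 in one fit of all 12. Calls at T1 (1871 higher, 2078 lower) were 838 and 983, 810 and 940, and 1062 and 1215 without T1 replicates 1, 2 and 3, 3162 and 3128 without T0 replicate 3, 3733 and 3729 with libraries 1 and 2 alone, and 1181 and 1175 by limma with no filter. At T2 (2704 higher, 2751 lower) the block gave 1622 and 1535, and limma 1574 to 1696 higher. Limma gave 17 to 43 higher and 8 to 77 lower at T3, 2 to 3 and 2 between T1 and T2, and 5 to 9 and 5 to 10 between T2 and T3. DESeq2 gave 234 and 70 between T1 and T2 and 430 and 330 between T2 and T3, one fit of all 12 gave 3 and 0 and 18 and 24, and no filter gave 136 and 25, 423 and 296, and at T3 against T0 711 and 454. A single T3 library left in a fit is assumed to vary like the other group. Depth limits Rbfox1, Rbfox3 and Srrm4.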
